A study of Rattus norvegicus with 42 samples.

Results

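Binding of the glucocorticoid receptor (GR) to the genome of rat liver was measured at the peak of the third of a series of hourly corticosterone (CORT) pulses. The deposited table of GR values held 3981 regions in 10 ChIP-Seq libraries, and all 3981 are described here in 4 of those libraries, 2 from the pulse peak (PEAK_140) and 2 from rats given vehicle (VEH). GR was raised over VEH at 3131 regions, which is 78.6% of those tested, and lowered at 73, which is 1.83%. The strongest sites lay beside metallothionein 2A (Mt2A), the triglyceride enzyme Lpin1, the transcription factor Zbtb16 and a number of long noncoding RNA genes, mostly far from promoters.

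All rats were male, adrenalectomised Sprague Dawley rats without a transgene, so that the infusion was their main source of CORT. The study's methods state that the rats received dexamethasone after surgery and CORT in the drinking water, which was withdrawn ahead of the infusion. PEAK_140 rats were infused intravenously with CORT for 20 min every 60 min at 1 ml/hr, and livers were taken at 140 min. VEH rats were given vehicle in the same pulses, with 1 library taken at 140 min (VEH replicate 1) and 1 at 180 min (VEH replicate 2). Further groups of 2 libraries each serve for comparison, the trough that follows the same pulse, at 180 min (NADIR_180), and a constant CORT infusion matched for hourly dose at 140 min (CONS_140, labelled replicates 1 and 25). Every ChIP library pooled 6 rats and was made with a mixture of 3 GR antibodies. Elongating RNA polymerase II, phosphorylated at serine 2 of its tail (pSer2 Pol2), was measured in parallel libraries at 140 min. RNA was sequenced only at 180 min, in 3 livers after pulsatile CORT and 3 after pulsatile vehicle, which are compared here. The fits across libraries also held constant CORT at 180 min in GR and pSer2 Pol2 (CONS_180, 2 libraries each) and, in RNA, 3 livers after constant CORT and 3 after constant vehicle.

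GR is a nuclear receptor that waits in the cytoplasm in a complex with chaperones until CORT binds it, and then enters the nucleus. There it binds as a dimer to a glucocorticoid response element, an imperfect palindrome whose arms resemble AGAACA and its reverse complement TGTTCT and are separated by 3 bases, or reaches DNA through other factors. In liver it is known for switching on genes of glucose production and amino acid breakdown and for restraining inflammation, mostly from enhancers that hepatocyte factors have already opened.

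Elements of this kind, as listed for the regions in the study's supplementary motif hits, are shown for 10 sites of genes described below. Of these, 2 are among the strongest sites, and the others lie at genes of the lists of known GR targets (Per1, Cdkn1a, Zbtb16), amino acid breakdown (Got1, Cps1), hepatocyte transcription factors (Nr0b2) and bile acid and drug metabolism (Sult1a1). Each is read on the strand given in that list, 5′ to 3′, with the bases of the arms in capitals and the spacer in lower case. The distance is from the centre of the region to the transcription start site (TSS) of the nearest gene, negative when upstream.
AABR07004100.2, -19990 b: GGAACAgcaTGTTCT
Mt2A, -1263 b: AGGACAggcTGTCCT
Per1, -1106 b: GGAACAtccTGTTCC
Per1, -3317 b: AGAACAcgaTGTTCC
Cdkn1a, 923 b: GGCACAgtaTGTTCC
Zbtb16, 77786 b: GGTACAgtgTGTTCT
Got1, -413 b: TGGACAcgcTGTACC
Cps1, -16600 b: GGTACAcccTGTTCA
Nr0b2, 3864 b: AGAACActgTGTCCC
Sult1a1, -63 b: AGGACTggcTGTTCT
The arms of the Mt2A element and of the Per1 element at -1106 b are exact reverse complements of each other, whereas the arms of the other elements shown are not. The Mt2A element shown lies 124 b from the centre of its region, and a shorter hit listed for that region lies 12 b from the centre. The hit list was available only in shortened form, so that no share of regions with an element is given.

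Across the regions, the pulse peak stood far above VEH. The value of a region in a library was taken as a log2 tag value after subtraction of input DNA. That scale is inferred, since the file header speaks of normalised tags but the values are fractional and go below 0. They may be regularised logs, which pull low values together, so a fold given here is one on the deposited scale and may differ from the fold in tags. The level per kb is the mean of the 2 PEAK_140 values less log2 of the region's length in kb. The level per kb of the 3131 raised regions ran from 2.16 to 8.97 with a median of 5.05, and that of the same regions in VEH had a median of 0.37. The log2 change over VEH had a median of 4.17 over all regions. Of these regions, 3209 overlap a PEAK_140 peak called by the authors and 116 a VEH peak. The set was thus chosen largely for binding at the peak, and the median and the share raised describe that set only. Both PEAK_140 values exceeded both VEH values at 3523 regions, which is 88.5%. Each library was also centred on its median, which takes a shift of 4.62 away from every change, and 103 regions were then called above 0 (2.59% of those tested) and 431 below. The change less this shift is named the centred change below. The shift exceeds the median change of 4.17, so a region can have a negative centred change and still have changed more than the median region. Many VEH values lie below 0, at a floor that differs between regions and whose origin was not tested, and where a fold change is a fitted value and not a bound.

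**Figure D1:**
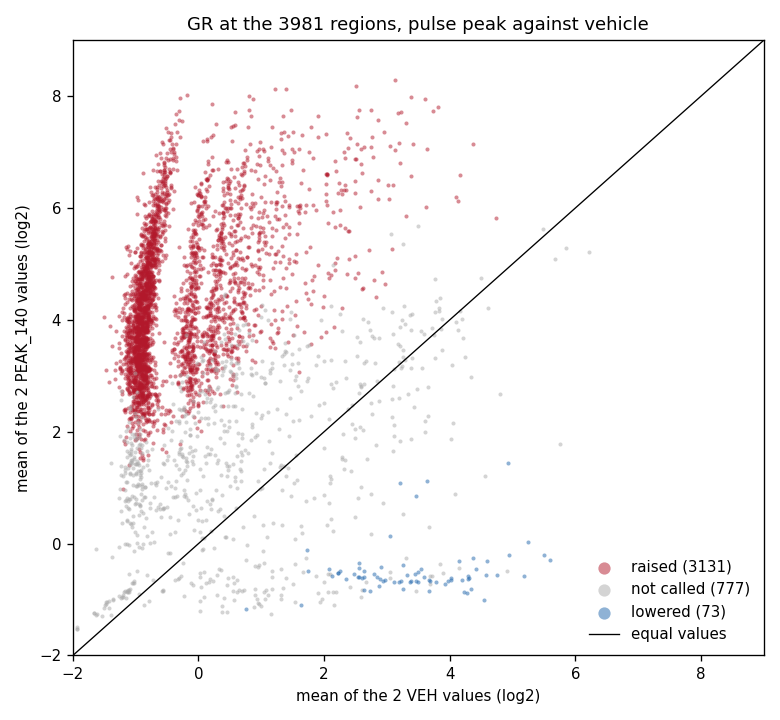
Mean of the 2 PEAK_140 values against the mean of the 2 VEH values (both log2) for each of the 3981 regions, coloured by call, with the line of equal values. The 3131 raised regions lie above the line, many of them in a column at VEH values below 0, and the 73 lowered regions lie below the line.

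The peaks called by the authors divide the regions in the same direction as the values. The PEAK_140 list held 3210 peaks and the VEH list 118. Of the raised regions, 2914 (93.1%) shared 1 b or more with a PEAK_140 peak, whereas 5 did so with a VEH peak. Of the lowered regions, 62 overlapped a VEH peak and 1 a PEAK_140 peak. The regions were built from these lists, so that this overlap describes the calls and is no separate evidence for them. Against NADIR_180, with the same PEAK_140 libraries, 2739 regions (68.8%) were higher at the peak and 18 (0.452%) lower. After centring the balance turned, to 32 higher and 184 lower. Against CONS_140, 1 region was higher and 1 lower (0.0251% each) by limma, and 560 had an unadjusted p under 0.05. These counts rest on single libraries, since without CONS_140 replicate 1 there were 359 higher and 46 lower, and without either PEAK_140 library none.

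Depth and tissue bear on all of these values. The PEAK_140 libraries held 2568317 and 2051977 tags and the VEH libraries 3236498 and 3902296, so the peak was the less deeply sequenced group. Across regions the 2 PEAK_140 libraries correlated with r = 0.81 and the 2 VEH libraries with r = 0.56, as a description over regions that share libraries. In the RNA libraries the summed CPM of 6 hepatocyte markers was 125217 to 143067 after CORT and 123345 to 127582 after vehicle. Kupffer cell markers summed to 245 to 388 and 223 to 314, endothelial markers to 240 to 311 and 240 to 328, stellate markers to 24.1 to 39.5 and 25.4 to 39.6, cholangiocyte markers (1 of 3 tested) to 9.43 to 14.6 and 8.15 to 10.2, and T and B cell markers to 37.3 to 52.9 and 43.6 to 67.2. The ranges of the 2 groups overlapped for each of the 6 marker lists. In whole liver, GR bound in more cells and more GR bound per cell cannot be told apart.

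The share of regions raised differed by position. Of the regions annotated as promoter, 187 of 333 were raised (56.2%), against 1565 of 1918 intergenic regions (81.6%) and 1256 of 1534 intronic regions (81.9%). Exonic regions were raised at 64 of 108 and regions at transcription termination sites (TTS) at 59 of 88. By distance, 262 of 474 regions within 1 kb of a TSS were raised (55.3%), 917 of 1181 between 1 and 10 kb (77.6%), 1285 of 1531 between 10 and 50 kb (83.9%), 413 of 486 between 50 and 100 kb (85.0%) and 254 of 309 beyond (82.2%). The raised regions lay at a median of 16584 b from the nearest TSS, 1431 of them upstream and 1700 downstream. Where GR was raised, its level per kb had a median of 4.95 within 1 kb and 5.09 between 10 and 50 kb. The regions were merged from the peak lists of the conditions, so the share in a class may also reflect which lists supplied its regions. No test of the difference in shares was made.

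**Figure D2:**
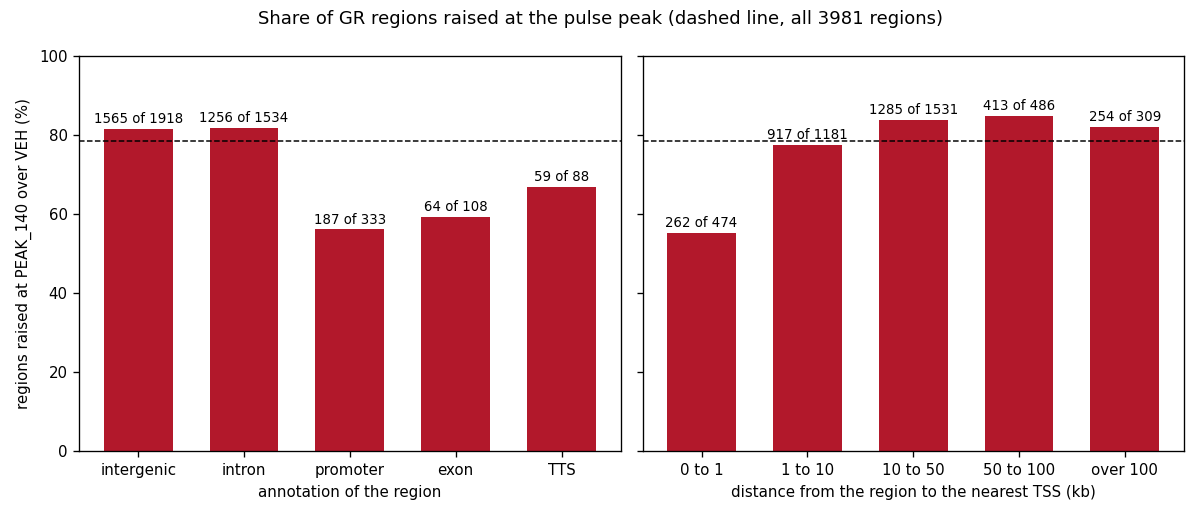
Percent of regions raised at PEAK_140 over VEH by annotation (left) and by distance to the nearest TSS in kb (right), with the number raised of the number of regions above each bar and the share over all 3981 regions as a dashed line. Promoter regions and regions within 1 kb of a TSS stand below the line at 56.2% and 55.3%.

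The 20 strongest sites were chosen by their PEAK_140 level per kb, which ran from 8.97 down to 8.37, with the next site at 8.35. Their values in the other groups are therefore a description. Their PEAK_140 values lay between 7.44 and 8.40 and their VEH values between -0.41 and 4.04, so that the groups did not overlap at any of the 20. The log2 change over VEH ran from 3.99 to 8.25 with a median of 5.97. Of the 20, 10 were intergenic, 9 intronic and 1 exonic, none was a promoter, and 4 lay within 10 kb of a TSS. For 12 of them the nearest gene was protein-coding, and the others were named for noncoding RNA genes.

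**Figure D3:**
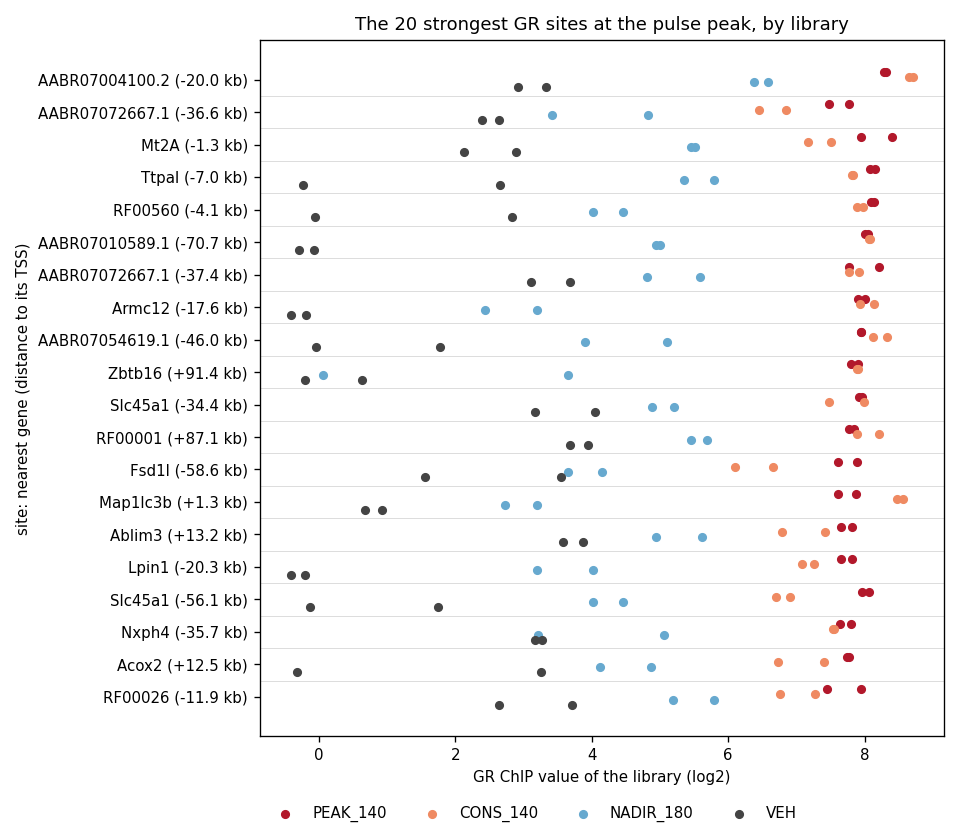
GR ChIP value (log2) in each library at the 20 strongest sites, from the highest level per kb at the top, named by the nearest gene and the distance to its TSS in kb. Each point is 1 library, 2 per group, and the PEAK_140 points lie at 7.44 or above at every site, to the right of all VEH and NADIR_180 points.

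The strongest site of all lay in the intron of Klf13, a Krüppel-like transcription factor, at chr1:124775856-124776481 (rn6), although the file names it for the noncoding gene AABR07004100.2. Its values were 8.28 and 8.31 at PEAK_140 and 2.92 and 3.33 in VEH, a log2 change of 5.17 ± 0.22 (SE). GR at this site was also high in NADIR_180, at 6.58 and 6.37. This region carries the first element shown above, 13 b to the left of the region's centre. Klf13 has its TSS 27.2 kb away, and its RNA rose by 1.02 on the log2 scale (edgeR, adjusted p = 0.0068), from 11.2, 12.6 and 16.4 CPM after vehicle to 23.9, 29.2 and 28.8 after CORT. The Klf13 pSer2 Pol2 change of 2.13 did not pass the test (limma, adjusted p = 0.28).

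Mt2A encodes a metal-binding protein of the stress response and is a textbook GR target. Its site at chr19:11309691-11310316, 1.26 kb upstream, read 8.40 and 7.94 at PEAK_140 and 2.90 and 2.13 in VEH, a 50.7-fold rise (log2 5.66 ± 0.34). NADIR_180 stood between them at 5.51 and 5.45. The pSer2 Pol2 signal over Mt2A rose from 6.92 and 7.10 to 8.84 and 8.65 (limma, adjusted p = 0.028). Its RNA at 180 min spread widely, at 359, 287 and 75.1 CPM after CORT and 72.5, 209 and 14.1 after vehicle, and the groups overlapped (adjusted p = 0.32).

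The site with the greatest change of all, named for Armc12 at chr20:8091727-8092352, lay 73.0 kb upstream of the TSS of Fkbp5, a co-chaperone that holds GR in its low-affinity state, and 73.3 kb upstream of that of Pim1, a kinase gene. PEAK_140 read 7.90 and 8.01, whereas VEH was at its floor with -0.19 and -0.40, a log2 change of 8.25 ± 0.38. NADIR_180 had fallen back to 2.43 and 3.19. Fkbp5 RNA rose 4.25-fold, from 13.9, 22.1 and 16.0 to 103, 58.4 and 58.9 CPM, without overlap (adjusted p = 0.00022). The Fkbp5 pSer2 Pol2 change of 1.83 did not pass the test (adjusted p = 0.17), and Pim1 passed the test in neither readout (RNA change -0.83, adjusted p = 0.30). Armc12 itself was not among the genes tested in RNA. Fkbp5 is the nearest gene of 2 other raised regions.

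Lpin1, which makes diacylglycerol for triglyceride synthesis and also acts as a nuclear coactivator of fat oxidation, had a pair of sites among the 10 most changed. The stronger lay 20.3 kb upstream at chr6:41890042-41890667, with 7.65 and 7.82 at PEAK_140 and -0.20 and -0.41 in VEH. The other, 14.7 kb upstream, read 7.49 and 7.52 against -0.27 and -0.48. Both readouts of the gene rose. Its pSer2 Pol2 signal rose by 4.40 ± 0.47 (adjusted p = 0.0016), and its RNA rose 8.30-fold, from 88.9, 76.1 and 112 to 819, 638 and 837 CPM (adjusted p = 4.05e-06).

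Zbtb16 (PLZF), a zinc finger repressor strongly induced by glucocorticoids in many tissues, carried its strongest site deep in intron 3, 91.4 kb from its TSS at chr8:53055202-53055827. There PEAK_140 read 7.80 and 7.91 and VEH -0.21 and 0.64, while the NADIR_180 libraries differed widely at 3.65 and 0.06. Over the gene, pSer2 Pol2 rose from 3.96 and 2.84 to 9.77 and 9.73, a change of 6.35 ± 0.63 (adjusted p = 0.0013). The RNA rose 6.67-fold, from 32.1, 41.7 and 94.2 to 405, 322 and 390 CPM (adjusted p = 0.00015).

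Map1lc3b, the membrane tag of autophagosomes, had the only other site of the 20 within 2 kb of a TSS besides Mt2A. In an intron, 1.34 kb from the TSS, GR read 7.88 and 7.61 against 0.92 and 0.68 in VEH. CONS_140 was higher still at 8.56 and 8.47, a difference of -0.77 that was not called. Both readouts of the gene rose, pSer2 Pol2 by 2.11 (adjusted p = 0.035) and RNA by 1.10 (adjusted p = 0.0018).

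The site named for AABR07010589.1, at chr2:141792853-141793478, had as its nearest protein-coding gene Foxo1, an activator of gluconeogenesis that insulin restrains, 342 kb away. GR read 8.01 and 8.05 at PEAK_140 and -0.08 and -0.29 in VEH. RNA of Foxo1 rose by 0.81 (adjusted p = 0.015) and its pSer2 Pol2 change of 1.05 was not called (adjusted p = 0.68). A pair of sites beside the noncoding gene AABR07072667.1 read 7.77 and 7.47 and, less than 1 kb further, 8.20 and 7.77, against 2.65 and 2.39 and 3.11 and 3.68 in VEH. Their centred changes were 0.49 and -0.02. RNA did not pass the test for the nearest protein-coding gene, Tomm20, an import receptor of mitochondria (edgeR, adjusted p = 0.067), or the next, Rbm34 (adjusted p = 0.96). It rose for a gene further off, Irf2bp2, a transcriptional corepressor 235 kb away (3.00-fold, adjusted p = 0.0013). Irf2bp2 is itself the nearest gene of 5 other raised regions.

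Slc45a1, a sugar transporter gene, was named for 2 of the 20 strongest sites. The site 34.4 kb upstream read 7.92 and 7.97 against 4.04 and 3.18, the highest VEH value among the 20, with a centred change of -0.28. The site 56.1 kb upstream read 8.06 and 7.96 against -0.13 and 1.75. Slc45a1 was tested in neither readout, and the next gene, the EGF receptor inhibitor Errfi1, lies 200 kb and 222 kb away with an RNA change of 0.64 (adjusted p = 0.11). The site named for AABR07054619.1 lay 85.6 kb from Ptpn1, a phosphatase that dampens insulin signalling, and 155 kb from Cebpb. It read 7.94 and 7.94 against -0.05 and 1.77. Ptpn1 RNA did not pass the test, at -0.12 (adjusted p = 0.71).

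The remaining strong sites showed the same separation of peak and vehicle. The site 6.98 kb upstream of Ttpal read 8.09 and 8.16 against 2.66 and -0.23, and that in the last exon of Spring1, annotated as its 3′ UTR and named for a small RNA (RF00560), 8.14 and 8.09 against -0.05 and 2.83. In both, the VEH libraries disagreed by more than 2 on the log2 scale, and it was the 140 min library that was high at the first and the 180 min library at the other. The intronic site of the peroxisomal oxidase Acox2 read 7.78 and 7.74 against 3.26 and -0.32, again with 1 high VEH library. Sites in introns of the choline transporter Slc44a1 (7.89 and 7.61 against 1.56 and 3.55) and of the lipoprotein receptor Lrp1 (7.64 and 7.80 against 3.27 and 3.17) are named in the file for Fsd1l and Nxph4, whose start sites are nearer. Ablim3, an actin-binding protein gene, read 7.82 and 7.65 against 3.58 and 3.87, the site named for RF00001 read 7.84 and 7.77 against 3.94 and 3.68, and the site named for RF00026, 14.8 kb from Edc3 and 24.8 kb from Cyp1a1, read 7.44 and 7.94 against 3.71 and 2.64. The centred changes of the Lrp1, Ablim3, RF00001 and RF00026 sites were below 0, at -0.12, -0.61, -0.62 and -0.10, and the VEH values of these 4 sites were 2.64 or more. Spring1, listed under its older symbol RGD1562310, rose 2.62-fold in RNA (adjusted p = 0.046), and of the other genes named here none passed the test in RNA or pSer2 Pol2.

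Taking the nearest protein-coding gene of each of the 20 sites gave 18 genes, whose readouts the choice of sites did not use. In RNA at 180 min 6 of the 14 tested rose and none fell, where 1.79% of all 14092 genes tested rose and 2.44% fell. The 6 were Klf13, Spring1, Foxo1, Zbtb16, Map1lc3b and Lpin1. In pSer2 Pol2 at 140 min 4 of the 17 tested rose and none fell, where 0.38% of all 16568 genes rose and 0.634% fell. These were Mt2A, Zbtb16, Map1lc3b and Lpin1. The median log2 change of the genes was 0.89 in RNA and 0.90 in pSer2 Pol2. When only the 4 pSer2 Pol2 libraries compared were fitted, no pSer2 Pol2 call remained for any gene, so those calls rest on the spread estimated over all 10 libraries.

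GR at the strongest sites was lower at the trough than at the peak. NADIR_180 was not tested against VEH here, and the study reports no site significantly enriched at NADIR_180 over VEH. All 20 were higher at PEAK_140 than at NADIR_180, by 1.82 to 6.00 with a median of 3.35, close to the median of 3.20 over all regions. The Klf13 site lost least and the Zbtb16 site most. Over all regions 68.8% were higher than at NADIR_180. None of the 20 was called against CONS_140, where 0.0251% of all regions were called each way, with differences from -0.77 to 1.37. These comparisons share the PEAK_140 libraries that chose the sites.

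The 10 most changed sites were those where VEH was at its floor. Their VEH values were -0.62 to -0.08 and their PEAK_140 values 7.19 to 8.05. The log2 change ran from 7.78 to 8.25, with the next site at 7.77. Besides the Armc12, Foxo1 and Lpin1 sites, 6 others were named. One lay in an intron of Mtss1, a membrane-bending protein gene, and read 7.63 and 7.71 against -0.25 and -0.46. Mtss1 pSer2 Pol2 rose by 2.01 (adjusted p = 0.037), and Ndufb9, the respiratory subunit for which the file names the site, did not pass either test. The intronic site of the endothelin-converting enzyme Ece1 read 7.67 and 7.19 against -0.42 and -0.62 and was back near the floor at NADIR_180, with 1.55 and -0.17. The site beside AABR07026037.1 read 7.68 and 7.43 against -0.16 and -0.37, 28.4 kb from Ppp1r3b, which targets protein phosphatase to glycogen. The sites beside AABR07062157.1 (7.48 and 7.67), AABR07027072.1 (7.28 and 7.42) and Map3k7cl (7.51 and 7.19) had no nearest protein-coding gene that passed a test. At the AABR07027072.1 site CONS_140 was lower, at 5.24 and 4.26, than either PEAK_140 value, and the difference of 2.60 was not called.

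Some genes had several raised sites. The 3131 raised regions had 2254 different nearest genes, where the 3981 regions as a whole had 2736. Of the 2254, 1700 had a single raised region, 554 had 2 or more, 185 had 3 or more and 29 had 5 or more. Genes were counted by identifier, because 249 raised regions carry the family name of a small RNA, and such names are shared by many loci (RF00560 covers 52 regions at 39 loci). The most sites, 10, lay around the noncoding RNA gene AABR07027072.1 on chromosome 17, spread over 196 kb. Their level per kb ran from 4.27 to 7.90. This noncoding RNA itself rose, from 0.725, 0.755 and 1.04 CPM to 10.0, 7.91 and 10.2 CPM, an 11.02-fold change (adjusted p = 3.29e-05), with pSer2 Pol2 up by 3.20 (adjusted p = 0.030). The nearest protein-coding gene to its strongest site, Gadd45g, lies 221 kb away and did not pass the test, at -1.41 (adjusted p = 0.14).

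Zbtb16 and AABR07072667.1 had 9 raised regions each, and Alb, the albumin gene, and Slc45a1 had 8 each. Of the Zbtb16 sites 1 lay 25.02 kb upstream and the others in introns, from 11.5 kb to 91.4 kb past the TSS, and all 9 were higher than at NADIR_180. The site at 77786 b, whose element is shown above, read 6.91 and 6.79 against 0.90 and 2.09. Of the 9 beside AABR07072667.1, 5 were higher than at NADIR_180, where 68.8% of all regions were. The next genes, with 7 sites each, were AABR07007874.1 near Pik3r1, AABR07054619.1 near Ptpn1, AABR07058158.1 near Myc, and Egfr, Eif1a, Insig1, Sgms1 and Tsku. Tsku, a secreted protein of the liver, rose in pSer2 Pol2 from 8.81 and 8.56 to 10.8 and 10.5 (adjusted p = 0.015), and its RNA change of 1.55 did not pass the test (adjusted p = 0.064). Eif1a, a translation initiation factor gene, rose 1.95-fold in RNA (adjusted p = 0.013). Alb RNA stood at 103635 to 120714 CPM after CORT and 108411 to 113419 after vehicle, and did not pass the test (log2 change 0.02, adjusted p = 0.96). Egfr, Insig1 and Sgms1 passed the test in neither readout.

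Along the chromosome, a cluster was taken as raised regions each within 10 kb of the next. There were 396 clusters of 2 or more, which held 915 raised regions (29.2%), and 81 of 3 or more. Clusters of 5 or more numbered 9. Those of Eif1a, Insig1 and Zbtb16 held 7 sites each, those of Alb, Hp and AABR07072667.1 held 6 each, and those of Egfr, Fgb and Slc45a1 held 5 each. Hp and Fgb encode haptoglobin and a fibrinogen chain, which are plasma proteins of the acute phase response. The tightest was that of Fgb, 12.7 kb long, which ran from 1174 b upstream of the TSS to 11.02 kb downstream and included a site at -79 b. The level per kb of the 285 regions in clusters of 3 or more had a median of 5.44 and that of the 2216 regions alone 4.95.

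Sites within a cluster were unequal. In the Zbtb16 cluster the PEAK_140 level per kb ran from 5.35 to 8.53, and in the Eif1a cluster from 3.55 to 7.22. The Insig1 cluster, upstream of a gene that retains the sterol sensor in the endoplasmic reticulum, ran from 4.80 to 7.33. Its 7 sites lay 13.6 kb to 40.8 kb before the TSS. The Alb cluster lay wholly upstream, from 2923 b to 19.0 kb, at 4.39 to 6.08. A further Alb site outside the cluster, 31.01 kb upstream, was stronger than all 6 with 6.81 and 7.31 at PEAK_140 and -0.31 and -0.52 in VEH. In the Slc45a1 cluster a single site reached 8.40 and the other 4 lay between 4.88 and 5.67.

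**Figure D4:**
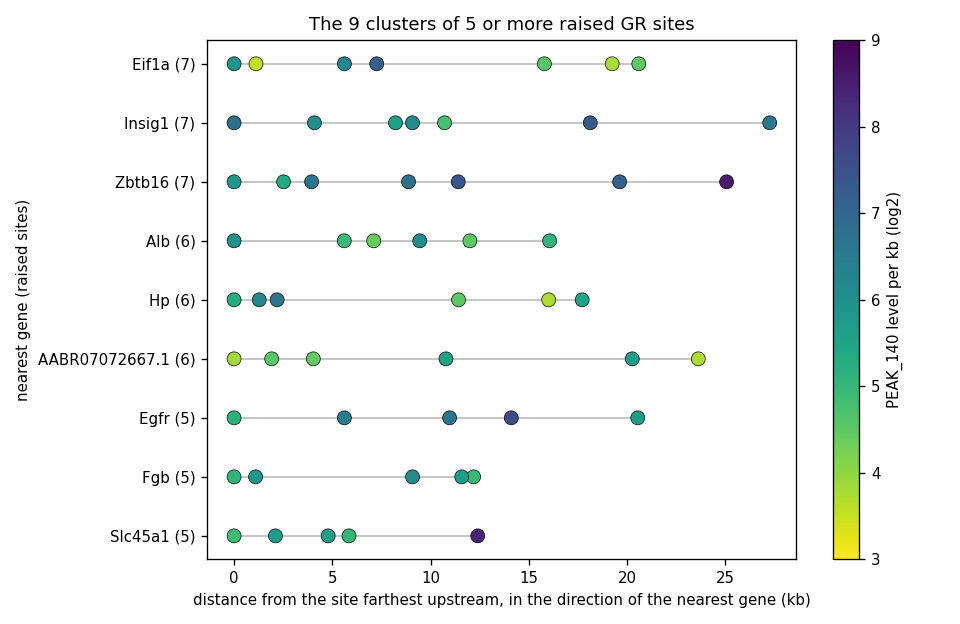
Position (kb, from the site farthest upstream in the direction of the nearest gene) and PEAK_140 level per kb (log2, colour) of the raised sites in the 9 clusters of 5 or more, with the number of sites beside the gene name. The Zbtb16 and Slc45a1 clusters each end in 1 site darker than the rest, at 8.53 and 8.40, while the Alb and Fgb clusters hold no site above 6.16.

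The share of genes raised in each readout went up with the number of raised GR sites, as counts without a test. In RNA, 0.924% of 12556 genes without a raised site rose, 7.01% of 1127 with 1 site, 9.92% of 262 with 2, 18.4% of 125 with 3 to 4 and 36.4% of 22 with 5 or more. In pSer2 Pol2 the shares were 0.0535%, 1.78%, 4.33%, 11.5% and 28%. Genes lowered in RNA did not follow that order, at 2.26%, 3.99%, 3.44%, 4.80% and 0 of 22. Nor did genes lowered in pSer2 Pol2, at 0.475%, 2.46%, 1.44%, 0.769% and 0%. Among genes with 1 site, 29 fell and 21 rose in pSer2 Pol2. By the strength of the strongest site, 3.83% of genes rose in RNA where the level per kb of that site was at most 4.51, and 19.1% where it was over 6.06. By distance, 15.7% rose where the nearest raised site lay within 1 kb of the TSS, 11.6% between 1 and 10 kb, 6.02% between 10 and 50 kb and 1.08% beyond, whereas the share lowered went from 0.897% to 2.14%, 4.78% and 10.2%. In pSer2 Pol2 the raised share by distance was 8.86%, 3.96%, 1.51% and 0.578%, and the lowered share, 1.27%, 2.48%, 2.52% and 0.578%, did not climb beyond 50 kb as it did in RNA. Per the methods, GR and pSer2 Pol2 were precipitated from aliquots of chromatin of the same pools of rats, so these readouts are not independent of each other, and the shares are counts over genes, which are not independent replicates.

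**Figure D5:**
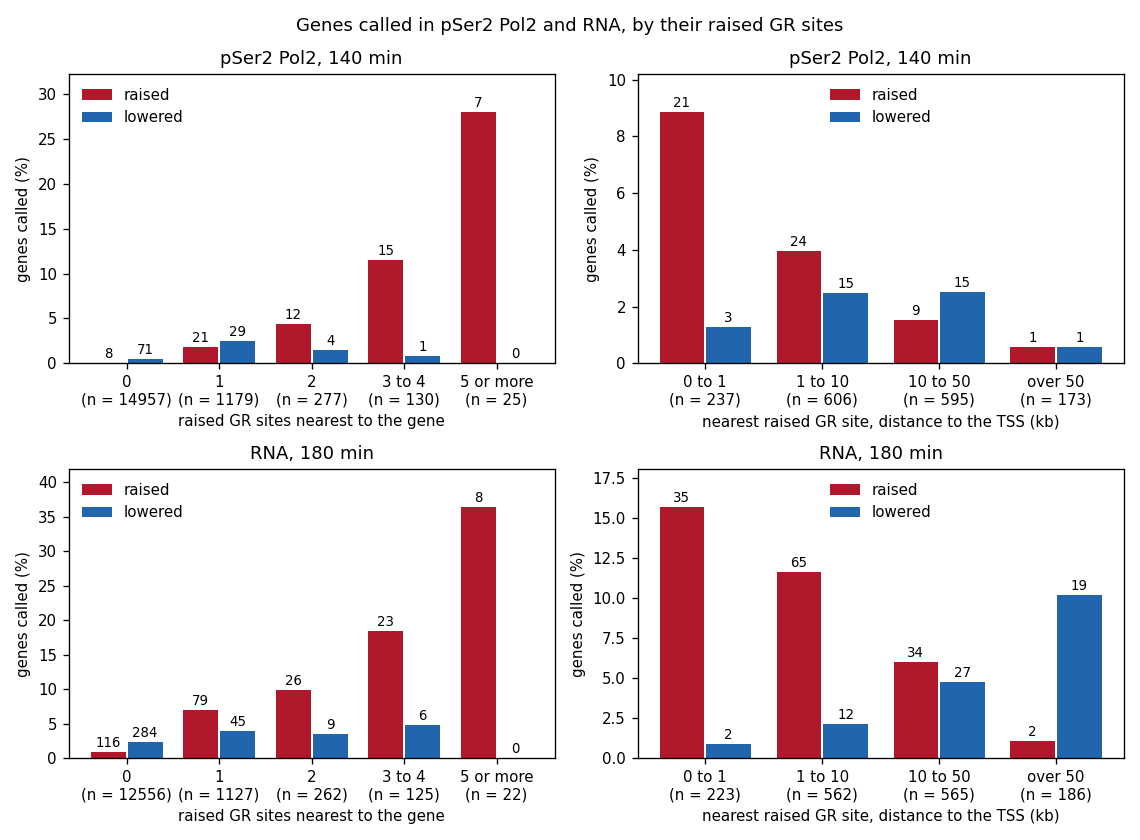
Percent of tested genes raised (red) or lowered (blue) in pSer2 Pol2 at 140 min (top) and RNA at 180 min (bottom), by the number of raised GR sites nearest to the gene (left) and by the distance of the nearest raised site in kb (right), with the number of genes called above each bar and the number tested below. In RNA the raised share climbs from 0.924% without a site to 36.4% with 5 or more, and beyond 50 kb lowered genes (19) outnumber raised ones (2).

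Known GR targets were bound at nearly every member. Of 15 such genes, 13 had at least 1 region and all 13 had a raised one. Of their 42 regions 37 were raised (88.1%) and 1 was lowered, beside 78.6% of all regions, and 5 of 15 genes rose in pSer2 Pol2 and 7 of 13 in RNA, with none lowered. Over all genes tested, 0.38% rose and 0.634% fell in pSer2 Pol2, and 1.79% rose and 2.44% fell in RNA, which is the scale for the counts of each list that follows. Likewise, 7.64% of 21743 protein-coding genes were nearest to a raised region. The pSer2 Pol2 counts of the lists carry the limit given above, that no call remained when only the 4 libraries compared were fitted. Tsc22d3, which encodes the anti-inflammatory protein GILZ, had 6 raised regions of 6, and Bcl6 4 of 5. Mt1 and Cebpd had none. Members of this list and of those below were chosen with earlier results of these data known, so the counts of the lists are descriptions. At Cdkn1a, the cell cycle inhibitor p21, an intronic site 923 b from the TSS with the element shown above read 7.08 and 7.07 against 2.65 and 2.11, and RNA of the gene rose 3.29-fold (adjusted p = 0.0021).

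Per1, the clock repressor that glucocorticoids induce directly, had 2 regions, both raised. The site at -3317 b read 6.88 and 6.94 against 2.38 and 3.17, and that at -1106 b, whose element is an exact inverted repeat, 6.35 and 6.91 against 3.09 and 2.11. The change at the nearer site was 4.03 ± 0.44 (limma, adjusted p = 8.77e-05), and the centred changes of the sites were -0.48 and -0.58. Per1 rose 8.30-fold in pSer2 Pol2 (adjusted p = 0.027) and 6.69-fold in RNA, from 3.26, 2.08 and 6.22 to 30.99, 24.5 and 20.6 CPM (adjusted p = 3.29e-05). Of 19 clock genes 10 had a region and 9 a raised one, 14 of 15 regions were raised (93.3%, beside 78.6% of all), and 2 of 17 genes rose in RNA, beside 1.79% of all genes. The intronic site of Arntl (Bmal1), a clock activator, read 6.17 and 6.07 against 1.98 and 2.08. Arntl RNA did not pass the test (edgeR, adjusted p = 0.67). Rora, a nuclear receptor that drives Arntl, had its stronger site in an intron 49.5 kb from the TSS, at 6.08 and 5.30 against 1.93 and -0.69, and did not pass either (adjusted p = 0.49).

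Genes of amino acid breakdown rose in RNA at most members. Of 18 genes 15 had a region and a raised one, 33 of 41 regions were raised (80.5%), near the 78.6% of all regions, 7 of 18 genes rose and 2 fell in pSer2 Pol2, and 13 of 18 rose in RNA with none lowered, where 0.38% of all genes rose in pSer2 Pol2 and 1.79% in RNA. Got1, the aspartate aminotransferase that feeds gluconeogenesis, had its site in the promoter at -413 b, with 7.11 and 7.93 at PEAK_140 and 3.43 and 3.17 in VEH. Got1 RNA rose 3.18-fold (adjusted p = 0.00016). Cps1, which starts the urea cycle, had its strongest site 16.6 kb upstream, at 6.60 and 6.71 against 2.32 and -0.51, and a weak one at -167 b, at 3.28 and 1.86 against -0.71 and 0.46. The weak site had an adjusted p of 0.019 and a centred change of -1.92. Cps1 RNA rose 1.96-fold (adjusted p = 0.00072). Sdsl, a serine dehydratase-like gene, read 6.502 and 6.445 against 1.45 and -0.68 at 4.34 kb upstream, and its RNA did not pass the test (adjusted p = 0.072).

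Of 16 genes of glucose production 11 had a region and 10 a raised one, and 17 of 29 regions were raised (58.6%) and 2 lowered, where 78.6% of all regions were raised, a difference that was not tested. In pSer2 Pol2 1 of 16 rose and 1 fell, beside 0.38% and 0.634% of all genes, and in RNA 4 of 15 rose and 1 fell, beside 1.79% and 2.44%. None of the 3 regions whose nearest gene was G6pc, the last enzyme of glucose release, was raised. The study reports CORT-responsive GR enrichment upstream of G6pc, and the reason for this difference was not tested. At Pck1, the rate-limiting enzyme of gluconeogenesis, 2 of 6 regions were raised, 1 of them in the promoter at -395 b, with 6.34 and 6.15 against 2.85 and 1.72 (3.96 ± 0.93), and Pck1 RNA rose 2.00-fold (adjusted p = 0.0031). The Pck1 pSer2 Pol2 change of 0.37 did not pass the test (limma, adjusted p = 0.999). Foxo3 and Igfbp1 had strong sites, 5.89 and 6.46 against -0.50 and -0.70 in a Foxo3 intron and 6.44 and 5.77 against 0.79 and -0.61 at 5.26 kb upstream of Igfbp1, but neither gene passed the test in RNA (adjusted p = 0.85 and 0.14).

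Of 24 genes of lipid metabolism 15 had a region and 11 a raised one, 21 of 30 regions were raised, where 78.6% of all regions were, and in RNA 1 of the 21 tested, Lpin1, rose, where 1.79% of all genes did. In pSer2 Pol2 1 of 22 rose and 9 fell, beside 0.38% and 0.634% of all genes. None of these pSer2 Pol2 calls remained when only the 4 libraries compared were fitted. The Insig1 site at -22706 b read 6.69 and 6.63 against 1.93 and 0.53, and the intronic site of Cpt1a, the gate of mitochondrial fat oxidation, 6.52 and 5.99 against -0.36 and 2.06. The intronic Lpin1 region was weaker than the upstream pair, at 1.91 and 2.76 against -0.82 and -0.94.

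Of 22 hepatocyte transcription factors 13 had a region and a raised one, and 33 of 38 regions were raised (86.8%), beside 78.6% of all regions. In RNA 2 of 20 rose and 1 fell, beside 1.79% and 2.44% of all genes, and in pSer2 Pol2, where 0.38% and 0.634% of all genes were called, the 22 tested held no call by limma and 8 with an unadjusted p under 0.05. The site of Nr0b2 (SHP), a repressor of bile acid synthesis, lay at the end of the gene and read 7.33 and 7.58 against 2.88 and 0.70. Xbp1 of the secretory stress response read 7.59 and 7.29 against 1.99 and -0.43 at 21.8 kb upstream, and its RNA rose by 0.98 (adjusted p = 0.045). Nr1i2 (PXR), the xenobiotic sensor, read 7.004 and 6.69 against -0.26 and -0.47 in an intron, and its RNA rose 1.96-fold (adjusted p = 0.00067).

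Plasma proteins had 61 regions. Of 20 genes 13 had a region and a raised one, 42 were raised (68.9%, beside 78.6% of all regions) and 2 lowered. In pSer2 Pol2 2 of 16 rose and 2 fell, beside 0.38% and 0.634% of all genes. In RNA none of 15 was called by edgeR or DESeq2, and none had an unadjusted p under 0.05 in edgeR, where 1.79% of all genes rose and 2.44% fell. At those shares a list of 15 genes may hold no call. Crp, C-reactive protein, had a promoter site at -461 b with 6.31 and 6.01 against 3.67 and 2.06, and complement C3 a site 4.89 kb upstream with 6.42 and 6.42 against -0.44 and -0.65. The centred change of the Crp site was -1.32.

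Genes of inflammatory and growth signals, with brakes such as Zfp36 among them, had 28 of 35 regions raised (80.0%), at 12 of 16 genes. Of this list, 4 of 16 genes were raised in pSer2 Pol2 and 3 of 14 in RNA, where 1 fell. The shares over all features were 78.6% of regions, close to that of the list, 0.38% of genes in pSer2 Pol2 and 1.79% in RNA. The intronic site of the interleukin-6 receptor gene Il6r, 12.6 kb from its TSS, read 7.65 and 7.64 against 2.01 and -0.33, and the gene rose in pSer2 Pol2 by 2.02 (adjusted p = 0.020) and in RNA by 0.90 (adjusted p = 0.0039). Igf1 had 5 raised regions of 5, the strongest with 7.10 and 6.81 against -0.58 and -0.77, and no call in RNA (adjusted p = 0.58). Zfp36, which destabilises cytokine mRNAs, read 7.20 and 6.98 against 2.65 and 2.83 at the end of the gene and rose in pSer2 Pol2 by 1.54 (adjusted p = 0.038). The Zfp36 RNA change of 0.76 did not pass the test (edgeR, adjusted p = 0.25).

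Among bile acid and drug metabolism genes 7 of 14 had a region, each of the 7 a raised one, and 11 of 13 regions were raised (84.6%), near the 78.6% of all regions. In pSer2 Pol2 2 of 11 rose and 3 fell, beside 0.38% and 0.634% of all genes, and in RNA 3 of 10 rose, beside 1.79%. The intronic site of Por, which passes electrons to cytochromes P450, read 6.58 and 6.96 against 2.59 and -0.63, and the gene rose 10.0-fold in pSer2 Pol2 (adjusted p = 0.0020) and 3.21-fold in RNA (adjusted p = 2.04e-05). Cyp7a1, the rate-limiting enzyme of bile acid synthesis, had a site 39.0 kb downstream with 5.87 and 5.68 against -0.63 and -0.82 and a weak one 280 b from its TSS with 2.65 and 2.28 against 0.60 and -0.61, and its RNA did not pass the test (adjusted p = 0.64). The weak site was raised over VEH (adjusted p = 0.012), with a centred change of -2.15. Of 15 genes of other tissues, such as heart, brain and pituitary, none had a region, where 9.3% of all protein-coding genes were nearest to one. At that share a list of 15 genes may hold none. In RNA 1 of the 7 tested, the synaptic gene Syn1, rose by 0.60 (adjusted p = 0.0087), and in pSer2 Pol2 none of 7 was called by limma or had an unadjusted p under 0.05.

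Sult1a1, a phenol sulfotransferase, had its site at the start of the gene. Its region was centred at -63 b and read 6.76 and 6.40 at PEAK_140, 1.95 and -0.58 in VEH and 5.88 and 5.92 in CONS_140. Its RNA rose 1.95-fold, from 175, 170 and 242 to 369, 397 and 375 CPM (adjusted p = 0.0050), while the pSer2 Pol2 change of 1.48 did not pass the test (adjusted p = 0.064). The 250 b before its start, from RefSeq in build GRCr8 (chr1:190706113-190706362, minus strand), are shown with the one AGAACA in capitals, at position -89, which is where the element listed for the region lies on this strand.
Sult1a1: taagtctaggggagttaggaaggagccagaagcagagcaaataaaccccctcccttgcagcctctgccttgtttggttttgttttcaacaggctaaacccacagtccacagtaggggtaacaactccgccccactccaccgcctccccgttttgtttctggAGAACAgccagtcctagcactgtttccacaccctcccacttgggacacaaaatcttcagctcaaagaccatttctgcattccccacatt
The 6 letters AGAACA, on either strand, occur in 17.5% of the 33469 RefSeq promoters of this length, so their presence is a description. In all, 89 raised regions were centred between 250 b before and 50 b after a TSS. Of these the highest levels per kb, named after their values were seen, were at the noncoding gene AABR07044148.1 (-41 b, 7.82 and 7.69 against 2.66 and 2.83) and at the promoter of Serpina3n, an acute phase protease inhibitor named LOC299282 in the file and so not counted in the list (-95 b, 7.56 and 7.01 against 1.55 and 1.304).

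Lowered regions were of another kind. The 73, of which 18 had an adjusted p below 0.01, had a median length of 150 b and a median log2 change of -3.89, and 17 of them lay in annotated satellite repeats, against 1 of the raised regions and 19 of all. Of the 73, 45 were intergenic, 17 intronic and 6 in promoters. Their PEAK_140 values lay between -1.22 and 2.95, most of them at the floor. The 5 most lowered were named for AABR07044106.1 (-0.40 and -0.18 at PEAK_140, 6.02 and 5.17 in VEH), AABR07051177.1 in a satellite repeat (-0.69 and -0.47 against 5.04 and 5.32), AABR07010649.1 (-0.32 and -0.09 against 5.67 and 5.31), Ppp1r3b (-1.12 and -0.90 against 5.97 and 3.12) and LOC499584 (-0.67 and -0.44 against 5.03 and 4.47). At these 5 sites a single CONS_140 library was high and the other at the floor, as with 6.61 and -1.41 at AABR07044106.1, so the height of these regions varied between libraries of 1 group. Only AABR07051177.1 was still called with any single PEAK_140 or VEH library left out. Over all lowered regions the count depended on each library, with 24 without VEH replicate 1, 25 without VEH replicate 2, 39 without PEAK_140 replicate 1 and 36 without PEAK_140 replicate 2.

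Among the lowered promoters were that of Hp at -380 b, with -0.73 and -0.52 against 3.29 and 2.49, within the cluster of 6 raised Hp sites, and that of Rhob at 2 b from its TSS, with -0.92 and -0.69 against 4.66 and 4.02. Of the nearest protein-coding genes of the 5 most lowered regions, 4 were tested in pSer2 Pol2 (adjusted p = 0.999 for each) and 3 in RNA, and none was called. These were Disc1, Ppp1r3b and LOC499584 in both and Mab21l1 in pSer2 Pol2, with adjusted p in RNA of 0.21, 0.12 and 0.80.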

How the data were processed

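The authors deposited values taken here as log2 for each GR region and each pSer2 Pol2 coding region per library, counts of reads per gene for RNA, and positions of peaks in b. Per the methods, reads were trimmed to 50 b, aligned to rn6 with bowtie2 and freed of duplicates. Peaks were called with HOMER over input and filtered by IDR, the lists of the conditions were merged and input tags were subtracted. The deposited GR values cover 3981 regions. The file header describes scaling to total tags and the methods scaling to tags within regions, so comparisons were also made after centring. The authors' own fold changes and p-values were not used. Values were compared with limma 3.58.1 over all 10 libraries of an assay (trend of variance on level), and RNA counts with edgeR 4.0.16 (TMM, quasi-likelihood, genes with more than 10 reads over 12 libraries, of 22747 named genes), in R 4.3.3. A feature was called where its p, adjusted by Benjamini and Hochberg's method, was under 0.05 and its change exceeded 1.5-fold. The tests were run on simulated data, where the smaller changes simulated for GR were missed and the larger recovered in part. Named sites were the 20 of highest PEAK_140 level per kb, the 10 of largest rise, the 5 of largest fall, the 12 genes and 8 clusters with most raised regions (ties kept), and in each of 10 gene lists the 3 genes with the highest level per kb, with their site nearest to the TSS. Members and lists were chosen with earlier results of these data known. Protein-coding neighbours were taken from the transcripts of the pSer2 Pol2 table. Totals were 2051977 to 6715803 tags per GR library and 3956379 to 7777219 reads per RNA library. Each ChIP library pools rats, so p-values of GR and pSer2 Pol2 measure the spread between pools within groups. The VEH pools were taken at 140 and 180 min, so their spread includes any effect of time. For the RNA libraries no pooling is stated, and their p-values measure the spread between livers. Alternatives covered scaling, libraries in the fit, thresholds, single libraries left out, a replicate block, other RNA tools and other cluster gaps.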

Additional observations from a re-analysis of the deposited data

Results flagged for a closer look

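GR differed between the pulse peak and constant infusion at 140 min, by the test of that difference, at 2 of the 3981 regions. The region 8667 b upstream of Pigv, in an exon of a neighbouring transcript, read -0.73 and -0.51 at PEAK_140, 6.53 and 6.85 in CONS_140 and 2.74 and 2.48 in VEH. Its log2 difference between PEAK_140 and CONS_140 was -7.31 (limma, adjusted p = 0.035). The region 13451 b from AABR07024593.2 read 7.18 and 7.10 at PEAK_140, 4.16 and 3.95 in CONS_140 and 3.42 and 3.43 in VEH, a difference of 3.09 (adjusted p = 0.035). Neither call was kept in every fit that left out a single library.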

How the results depend on the processing

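Raised regions numbered 3131, and 103 with each library centred, 574 with quantile normalization and 1772 in the upper part of regions by mean value, where only 1991 were tested. With 1 library left out they ranged from 2573 to 2926. Lowered regions numbered 73, and 431 centred, 465 by quantile, 18 at an adjusted p below 0.01, 19 in the upper part and 24 to 39 with 1 library left out. Against NADIR_180, 32 regions were higher and 184 lower after centring. Leaving out 1 library gave 1726 (without PEAK_140 replicate 1) to 2605 higher and 6 (without NADIR_180 replicate 1) to 18 lower, and the 4 libraries alone 38 lower. The replicate block gave 29 lower, and the same 6 libraries (PEAK_140, NADIR_180 and CONS_180) without a block, an alternative chosen after seeing the data, also 29. Same-numbered libraries correlated at -0.034 to 0.044, so the numbers pair no samples, and the VEH ChIP libraries carry none. In RNA the block gave 265 raised and 373 lowered genes. Against CONS_140, centring gave 0 higher, the 4 libraries alone 17 higher and 3 lower, and 1 library left out 0 to 359 higher and 0 to 46 lower. Raised pSer2 Pol2 regions numbered 140, and 301 centred, 0 with the 4 libraries alone (1923 at an unadjusted p under 0.05) and 12 (without VEH replicate 2) to 90 with 1 library left out. Lowered ones numbered 239, and 482, 0 and 7 to 98. RNA with 1 library left out gave 163 to 219 raised and 165 to 274 lowered genes. Clusters of 3 or more numbered 48 at a gap of 5 kb and 145 at 20 kb. The cause of these shifts was not tested.

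Of 70 named sites, 20 had a centred change below 0: Per1 (-0.48 and -0.58), Nxph4 (-0.12), Got1 (-0.40), Igf1 (-1.68), RF00001 (-0.62), C3 (-0.36), Cyp7a1 (-2.15), AABR07072667.1 (-0.021), Slc45a1 (-0.28), Cps1 (-1.92), Lpin1 (-1.40), Ablim3 (-0.61), Crp (-1.32), Nr0b2 (-0.13), Arntl (-0.53), Pck1 (-0.66), Rora (-0.54), Zfp36 (-0.27) and RF00026 (-0.10). For Igf1, C3, Cyp7a1, Cps1, Lpin1, Nr0b2 and Rora the value is that of the site nearest to the TSS. The strongest site of each of these genes had a centred change above 0. Quantile normalization turned 8: Igf1 (-1.51), C3 (-0.14), Cyp7a1 (-2.15), Cps1 (-1.72), Lpin1 (-0.74), Crp (-0.45), Nr0b2 (-0.025) and Rora (-0.57). All 8 were the sites nearest to the TSS, and only at Crp was this also the strongest site of the gene. The libraries compared held 2051977 to 3902296 tags, with 2 pools a group, and the smallest difference detectable at weak sites was not measured.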
